A study of Mus musculus with 12 samples.

Results

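Selenoproteins carry selenocysteine, which ribosomes insert at a UGA codon that elsewhere ends translation. Reading UGA this way needs a SECIS element in the mRNA (in animals a hairpin after the coding sequence), the SECIS-binding protein Secisbp2, and a dedicated elongation factor, Eefsec, that delivers the selenocysteine tRNA. Many selenoproteins are redox enzymes that remove peroxides or reduce thioredoxin, and others reside in the endoplasmic reticulum (ER). The genes described here were the glutathione peroxidases Gpx1 and Gpx4, the thioredoxin reductases Txnrd1 and Txnrd2, the ER proteins Selenok, Selenos, Selenof and Selenot, the small cytosolic protein Selenow, and Sephs2, which makes the selenium donor for selenocysteine. They were taken from the files by symbol, and all 10 were found among the 15803 transcripts with a read in at least 1 library.

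KPC cells are a mouse pancreatic ductal adenocarcinoma line from engineered animals that carry Cre under the Pdx1 promoter, and every group here shares this background. They were left without Cis (PBS) or treated with 20 μM cisplatin (Cis), a platinum drug that damages DNA, for 6 or 21 h. Ribosome-protected fragments (footprints) and total RNA (RNA-seq) were sequenced from lysates made with cycloheximide, with 2 libraries per assay and group and 12 in all. The length of the PBS treatment is not labelled, the same PBS libraries are the control for both times, and nothing in the labels says that libraries of a group came from separate cultures, so p-values measure only the spread between these libraries. Values are RPKM, reads scaled by length and by the library's total. Footprints were counted within the coding sequence, and RNA-seq reads along the full transcript.

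Footprint libraries held 3375480 to 5204127 reads and RNA-seq libraries 1985344 to 2901692, and the 21 h footprint libraries were shallower than both PBS ones. In RNA-seq, 3 transcripts (Lars2, Tmem38b and Mettl26) took 51.8% to 56.6% of all reads, which lowers every other RNA value by a like share. The epithelial markers Krt8, Krt18, Krt19 and Cdh1 were high (footprints of Krt8 were 3214 to 4949 RPKM). Krt7 was lower (9.19 to 21.9), and Epcam was near 0 (0.287 to 1.83). Of 12 markers of blood, vessel, stromal, acinar and islet cells, 8 were in the files. Their summed footprints were 10.3 to 11.01 RPKM in PBS, 7.96 to 9.64 at 6 h and 9.72 to 13.2 at 21 h, against 6697 to 9781 for the epithelial list. Ptprc, Pecam1, Cdh5 and Pdgfra reached at most 0.54 RPKM in any library, Col1a1 1.71, Lyz2 4.28, Cd68 5.40 and Col3a1 8.09, and Ptprc, Pecam1, Cdh5 and Lyz2 had no RNA read. At 21 h, footprints of 4 of 6 epithelial markers were lower than in PBS (median log2 fold change -0.61), against 20.2% of all transcripts. In RNA, 3 of 5 were lower and 1 higher, against 12.2% and 11.6% of all. Krt18 RNA went from 421 and 426 RPKM in PBS to 534 and 544 at 21 h, and its footprints overlapped. Of the 2 non-epithelial markers past the filter, Col3a1 footprints were lower (-1.25), while Cd68 RNA was higher, at 5 and 9 reads against 1 and 3. Whether depth or these markers have a part in the results was not tested.

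The 10 transcripts are short. Their median coding length was 594 bases, against 1368 over all transcripts, and ran from 264 for Selenow and 282 for Selenok to 1839 for Txnrd1. The Gpx4 entry has a coding sequence of 759 bases, and Gpx4 is known to have cytosolic, mitochondrial and nuclear forms, so its value may sum over more than one of them. The UGA is known to lie near the end of the coding sequence in Txnrd1, Txnrd2, Selenok and Selenos, near the middle in Selenof and in the long form of Gpx4, and closer to the start in Gpx1, Selenow, Selenot and Sephs2. Each deposited value covers the whole coding sequence, so footprints before and after the UGA cannot be told apart in these data.

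In PBS-treated cells, footprints of the 10 genes spanned a wide range. Selenok, an ER membrane protein that works with the palmitoyltransferase Zdhhc6, had the highest level (328 and 353 RPKM in the 2 libraries). Selenof, a partner of the glycoprotein-folding sensor Uggt1, followed (319 and 247), and its libraries overlapped those of Gpx1 (293 and 239). Below these came Selenow (228 and 220), Gpx4 (169 and 166), Selenot (116 and 111) and Txnrd1 (111 and 109), with no overlap between neighbours, although Selenot and Txnrd1 lay within a few RPKM of each other. Selenos (27.0 and 30.1), Sephs2 (20.6 and 16.8) and Txnrd2 (3.52 and 3.66) were much lower. Among the 10390 transcripts tested in footprints, Selenok stood at the 94.7th percentile, Sephs2 at the 51.3rd and Txnrd2 at the 14.3rd.

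RNA gave another order. Gpx4 was highest in PBS (120.0 and 111 RPKM), followed by Selenow (102 and 102), Gpx1 (85.2 and 102), Selenof (88.5 and 80.8) and Selenot (73.5 and 78.4). Selenow overlapped Gpx1 and Gpx1 overlapped Selenof. Txnrd1 (42.2 and 48.3), Selenok (22.0 and 19.3) and Sephs2 (18.1 and 23.1) came next, the last 2 overlapping. Selenos was at 4.43 and 14.2 RPKM, from 13 and 49 reads, the widest gap of any member's PBS libraries as a ratio. Txnrd2 was at 0.565 and 0.839 RPKM (4 and 7 reads), under the filter of a mean of 1 RPKM, and so has no RNA test and no ratio.

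**Figure D1:**
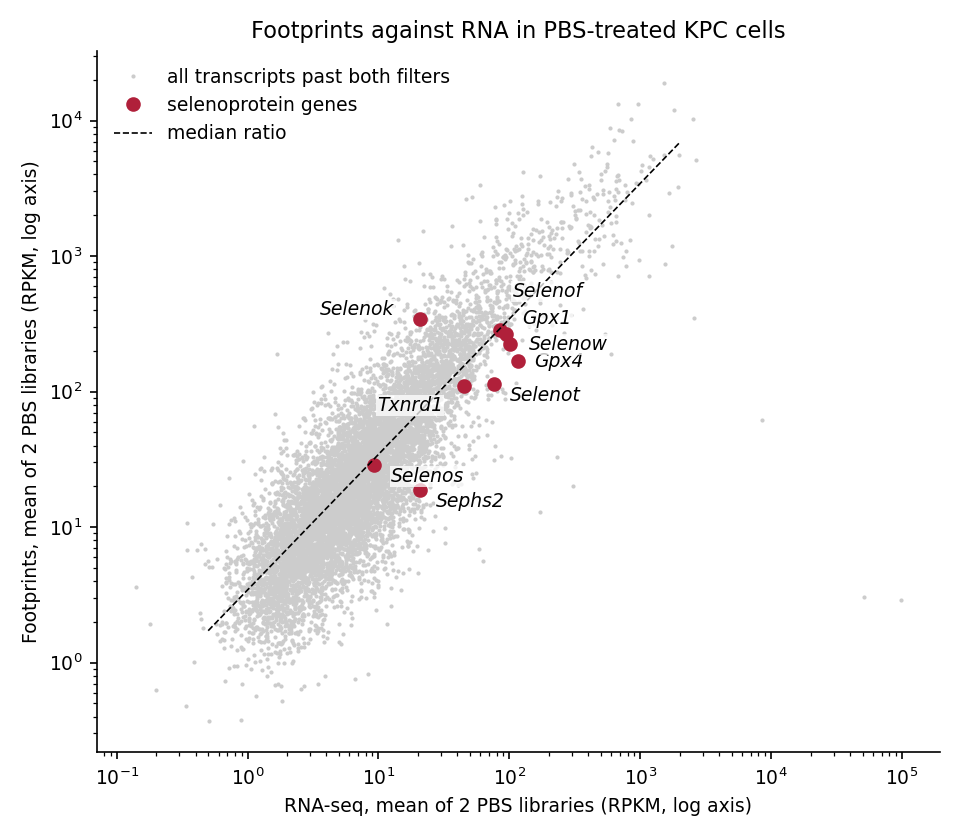
Mean footprint RPKM over the coding sequence (y axis, log) against mean RNA-seq RPKM over the transcript (x axis, log) of the 2 PBS libraries of each assay. Grey points are the transcripts past both filters, red points are 9 of the 10 selenoprotein genes, and the dashed line marks the median ratio of 3.44. Selenok lies far above the line, and Sephs2, Gpx4 and Selenot lie below it.

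The ratio of footprints to RNA, an estimate of translation efficiency (TE), set Selenok apart from the other members. Selenok had 16.5 times as many footprint RPKM as RNA RPKM in PBS, a ratio above that of 98.0% of 9309 transcripts. The other 8 measured genes were below the median of 3.44. Selenof was at 3.34, Selenos at 3.07 (6.08 and 2.12 for libraries of the same number, on either side of the median), Gpx1 at 2.84, Txnrd1 at 2.42 and Selenow at 2.21. Selenot (1.50), Gpx4 (1.45) and Sephs2 (0.906) were the lowest, Sephs2 at the 4.68th percentile. At 21 h, Selenok was still at the top (18.3, 98.6th percentile) and Sephs2 at the bottom (0.808, 4.53rd).

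Of the 3 measured genes with a late UGA, Selenok was above the median ratio and Selenos and Txnrd1 below it, and the 6 with a UGA in the middle or toward the start were all below it. Short coding sequences had higher ratios in general. The median was 6.97 over 200 transcripts with a coding sequence of up to 300 bases, and Selenok was above 83.5% of them. Selenow, which is shorter still, was at 2.21. The ratio's zero point depends on the totals of both assays, so only its order among transcripts was read. Whether the place of the UGA or the length has a part in it was not tested.

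**Figure D2:**
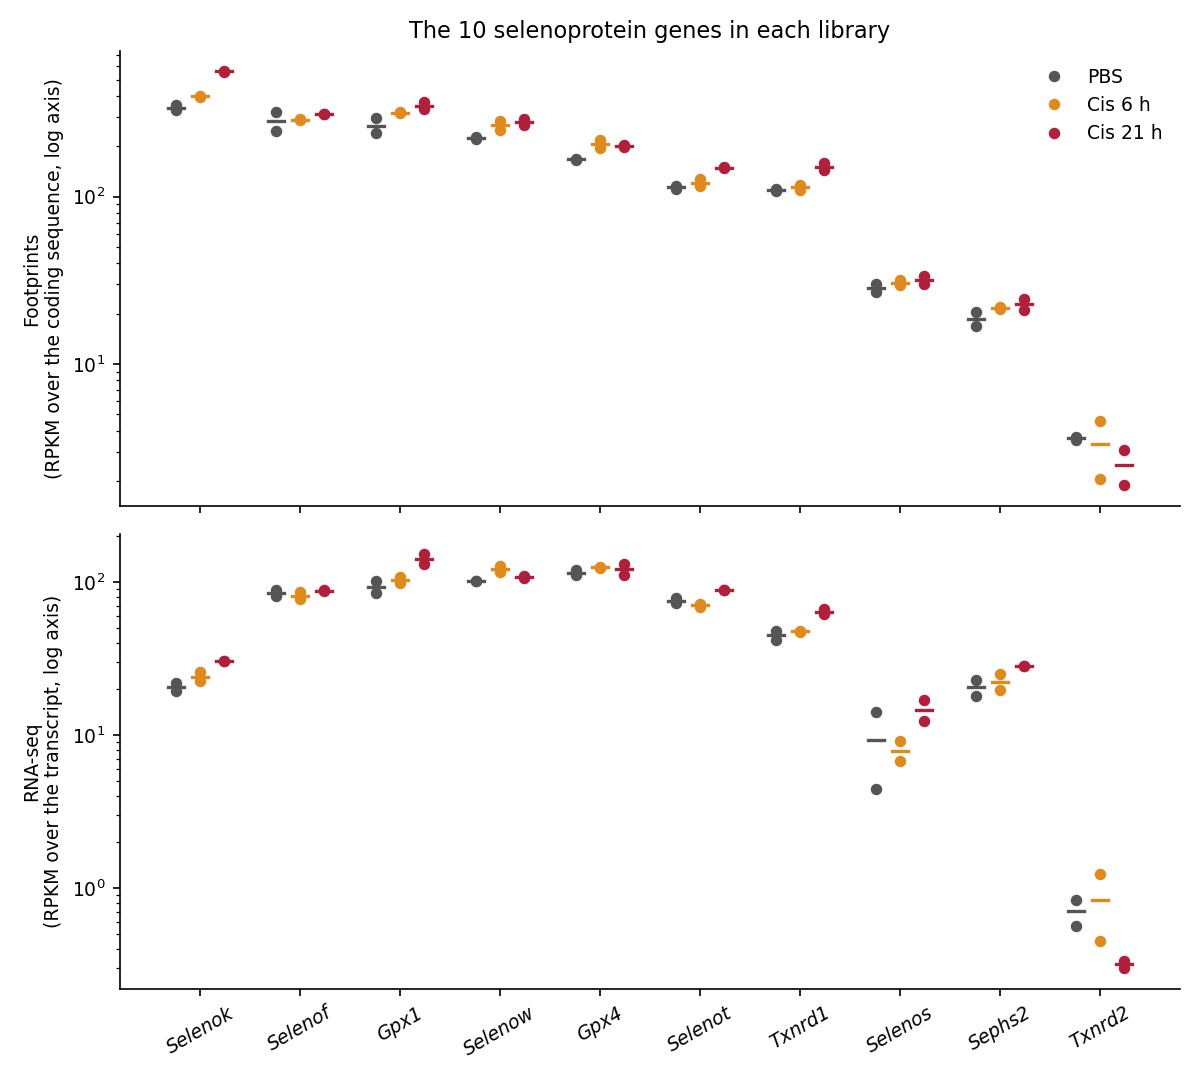
RPKM (log axes) of each selenoprotein gene in every library, for footprints (top) and RNA-seq (bottom), ordered by footprints in PBS. Points are libraries, 2 per group, and horizontal bars are group means. Footprints of Gpx1, Selenok, Selenot and Txnrd1 at 21 h lie above both earlier groups, and Txnrd2 is the lowest gene in both assays.

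After 21 h of Cis, footprints of 5 of the 10 selenoproteins rose and none of the 10 fell at an adjusted p under 0.05 (limma, Benjamini-Hochberg over 10390 transcripts). Over all transcripts, 18.9% were higher and 20.2% lower. The members' median log2 fold change was 0.26, against 0.01 for all transcripts. Together the 10 genes took 0.0859% and 0.0933% of footprint reads in PBS, 0.0988% and 0.102% at 6 h and 0.115% and 0.118% at 21 h. For 7 of the 10, both 21 h libraries were above both PBS libraries after scaling, which held for 35.4% of all transcripts. For 1, Txnrd2, both were below, which held for 35.0% of all. In bulk samples, a change in the make-up of the culture and a change per cell cannot be told apart.

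Of the thioredoxin reductases, which use NADPH to reduce thioredoxin, cytosolic Txnrd1 rose. Its footprints were at 111 and 109 RPKM in PBS, 118 and 110.2 at 6 h, and 158 and 144 at 21 h. Both 21 h libraries were well above the other 4, which overlapped. The log2 fold change at 21 h was 0.42 ± 0.09 (SE, n = 2 against 2, limma adjusted p = 0.0065), and Txnrd1 passed under all 16 alternatives. Its RNA was higher too, going from 42.2 and 48.3 RPKM in PBS to 61.6 and 67.0 at 21 h (log2 fold change 0.42 ± 0.10, limma adjusted p = 0.018). The RNA call was lost without 1 library in 3 cases, with adjusted p = 0.13 (log2 fold change 0.33) without PBS replicate 1, 0.051 (0.45) without 21 h replicate 1 and 0.077 (0.40) without 21 h replicate 2.

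Mitochondrial Txnrd2 had a lower value at 21 h but did not pass. Its footprints were at 3.52 and 3.66 RPKM in PBS, 4.58 and 2.06 at 6 h, and 1.89 and 3.08 at 21 h, from 11 to 34 reads after treatment. The 21 h change of -0.52 had a 95% interval of -1.35 to 0.32, so neither a fall nor a rise was detectable at this depth. The RNA had 4 and 7 reads in PBS and 2 in each 21 h library, at or under 3 reads, and no fold is given for it.

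Of the glutathione peroxidases, which reduce peroxides with glutathione, Gpx1 acts on hydrogen peroxide and Gpx4 on lipid peroxides in membranes. Gpx1 footprints were at 293 and 239 RPKM in PBS, 315 and 319 at 6 h, and 366 and 335 at 21 h. Both treated groups were above both PBS libraries, which were themselves the farthest apart. The log2 fold change at 21 h was 0.37 ± 0.10 (limma adjusted p = 0.020). It was 0.24 (adjusted p = 0.11) without PBS replicate 2 and 0.31 (adjusted p = 0.080) without 21 h replicate 1. Gpx1 RNA rose too, from 85.2 and 102 RPKM to 131 and 153 (0.51 ± 0.11, limma adjusted p = 0.0082), the largest RNA change among the members that passed. That call too was lost without PBS replicate 1 (0.39, adjusted p = 0.075) or 21 h replicate 2 (0.44, adjusted p = 0.052).

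Gpx4 did not pass, but did at 21 h when the RPKM were left unscaled (0.27, limma adjusted p = 0.037). Its footprints went from 169 and 166 RPKM in PBS to 217 and 195 at 6 h and 199 and 204 at 21 h, so all 4 treated libraries were above both PBS libraries. The log2 fold change at 21 h was 0.23 ± 0.09 with limma adjusted p = 0.063, and the 6 h value of 0.28 ± 0.09 had adjusted p = 0.12. Its RNA overlapped between groups, at 120.0 and 111 RPKM in PBS and 112 and 132 at 21 h (log2 fold change -0.01, 95% interval -0.22 to 0.20). Whether the changes of Gpx1 and Gpx4 differ was not tested.

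Selenok had the largest and firmest change of the 10. Its footprints were at 328 and 353 RPKM in PBS, 393 and 401 at 6 h, and 559.9 and 559.4 at 21 h, with no overlap between any of the 3 groups. The log2 fold change at 21 h was 0.68 ± 0.08 (limma adjusted p = 0.00037) and lay between 0.61 and 0.75 under the 16 alternatives, all of which kept the call. Selenok RNA went from 22.0 and 19.3 RPKM to 30.7 and 30.5 (0.48 ± 0.14, limma adjusted p = 0.033). The RNA call was lost without any 1 of the 4 libraries compared, with log2 fold changes of 0.36 (without PBS replicate 2, adjusted p = 0.19) to 0.58 (without PBS replicate 1, adjusted p = 0.063).

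The other ER members split. Selenot, a thioredoxin-like protein of the ER membrane, was at 116 and 111 RPKM in PBS, 127 and 115 at 6 h, and 147 and 149.8 at 21 h, and rose by 0.35 ± 0.09 (limma adjusted p = 0.014). Without PBS replicate 2 the value was 0.33 with adjusted p = 0.059. Its RNA was at 73.5 and 78.4 RPKM in PBS and 89.2 and 89.3 at 21 h, higher in both libraries, with a log2 fold change of 0.15 ± 0.09 that did not pass (adjusted p = 0.27).

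Selenof and Selenos overlapped between groups in footprints. Selenof was at 319 and 247 RPKM in PBS and 313 and 312 at 21 h (0.12 ± 0.11, limma adjusted p = 0.42). The 2 PBS libraries decided its value, which was 0.28 with adjusted p = 0.047 without PBS replicate 1 and -0.05 without PBS replicate 2. Selenos, which links the ubiquitin-dependent ATPase Vcp to ER-associated degradation, was at 27.0 and 30.1 RPKM in PBS and 33.8 and 30.1 at 21 h (0.12 ± 0.13, adjusted p = 0.47). Selenos RNA, at 4.43 and 14.2 RPKM in PBS and 16.9 and 12.5 at 21 h, had the widest interval of any member, from -0.18 to 1.66, and its log2 fold change was -0.04 without PBS replicate 1 and 1.51 (adjusted p = 0.015) without PBS replicate 2.

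Selenow, a small thioredoxin-fold protein, was at 228 and 220 RPKM of footprints in PBS, 251 and 282 at 6 h, and 267 and 289.6 at 21 h. It was higher in all 4 treated libraries and passed narrowly at 21 h (0.28 ± 0.09, limma adjusted p = 0.039), a call that 10 of 16 alternatives lost. Among these were the fits without PBS replicate 1 (adjusted p = 0.099), PBS replicate 2 (0.11), 6 h replicate 1 (0.055), 6 h replicate 2 (0.055) or 21 h replicate 2 (0.15), with log2 fold changes of 0.22 to 0.28. Sephs2, itself a selenoprotein, was at 20.6 and 16.8 RPKM in PBS and 24.6 and 21.1 at 21 h, without overlap but also without a call (0.25 ± 0.15, adjusted p = 0.21). Its RNA was at 18.1 and 23.1 RPKM in PBS and 28.2 and 28.4 at 21 h (0.37 ± 0.16, adjusted p = 0.12).

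**Figure D3:**
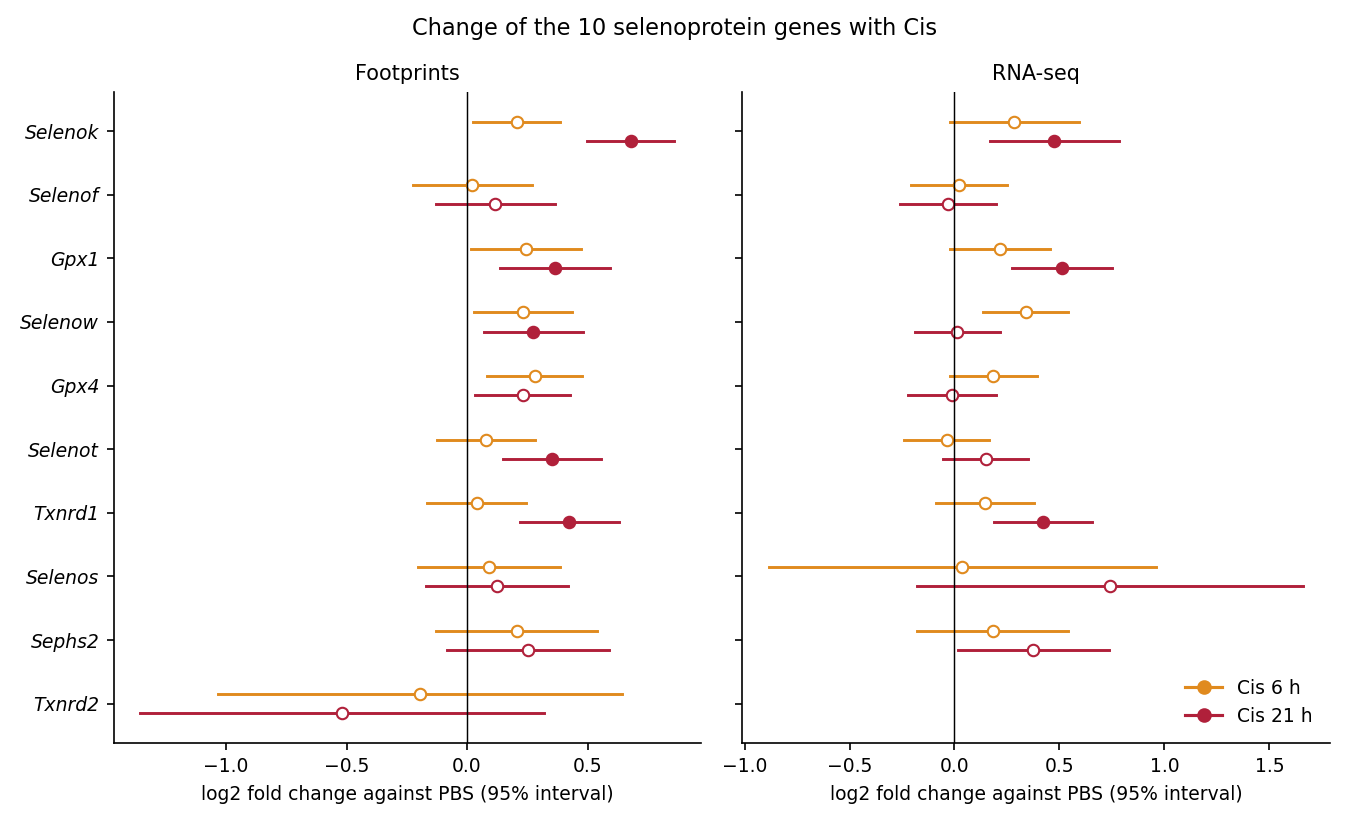
Log2 fold change against PBS (x axis) of the 10 selenoprotein genes at 6 h (orange) and 21 h (red), for footprints (left) and RNA-seq (right), with 95% intervals from limma, 2 libraries against 2. Filled points have an adjusted p under 0.05, and Txnrd2 was under the RNA filter. In all, 5 footprint and 3 RNA values at 21 h are filled, all to the right of 0.

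For RNA at 21 h, 3 of 9 members were higher (Gpx1, Selenok and Txnrd1) and 0 lower, against 11.6% higher and 12.2% lower of 9459 transcripts. The members' median log2 fold change was 0.37, against 0.02 over all. Both 21 h libraries were above both PBS libraries for 5 of the 9 (33.3% of all transcripts) and below them for 0 (30.7% of all). All 3 genes with an RNA call had a footprint call too, while Selenot and Selenow had a footprint call only. The footprint and RNA changes of Selenow were 0.28 and 0.01, and those of Txnrd1 were 0.42 and 0.42.

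At 6 h no member passed in either assay. In footprints, limma called 0 of 10, against 2.04% of all transcripts. Of the 10 values, 9 were above 0, and 4 (Gpx1, Gpx4, Selenow and Selenok) were higher with an unadjusted p under 0.05. Over all 10390 transcripts, 5028 values were above 0 and 2217 had an unadjusted p under 0.05, 1071 of them higher. The members' median was 0.15, against -0.01 over all. Limma's voom on the recovered reads called 1, Gpx4, and over all transcripts 533 higher and 722 lower. Both 6 h libraries were above both PBS libraries for 5 of 10 in footprints (25.7% of all) and for 5 of 9 in RNA (21% of all). They were below both for 0 members in footprints (28.6% of all) and 0 in RNA (23.0% of all). In RNA, limma called 0% of all 9459 transcripts at 6 h, where 1086 had an unadjusted p under 0.05, and of the members only Selenow did. Voom called 65 transcripts higher and 153 lower in RNA at 6 h, and 0 of the 9 members. Selenow RNA was at 129 and 117 RPKM at 6 h, against 102 and 102 in PBS and 110.2 and 107 at 21 h.

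Between the 2 times, footprints of 3 members were higher at 21 h than at 6 h (15% of all transcripts were). Selenok differed by 0.47 ± 0.08 (limma adjusted p = 0.0033) under all 16 alternatives. Txnrd1 differed by 0.38 ± 0.09 (adjusted p = 0.014), which was lost without 6 h replicate 1 (0.43, adjusted p = 0.052), 6 h replicate 2 (0.34, 0.11) or 21 h replicate 1 (0.32, 0.064). Selenot differed by 0.27 ± 0.09 with adjusted p = 0.048, a call that 12 of 16 alternatives lost, among them leaving out any single footprint library (log2 difference 0.20 to 0.34). In RNA, Selenow was lower at 21 h than at 6 h (-0.33 ± 0.09, adjusted p = 0.037, against 8.2% lower of all), which leaving out any 1 of the 6 RNA libraries ended (-0.40 to -0.26). Without scaling, 3 members were higher and 0 lower in RNA between the 2 times, and calls over all transcripts went from 712 higher and 776 lower to 1234 and 514. For Gpx1, Gpx4 and Selenow, the footprint difference between 6 and 21 h was at most 0.12 in size and did not pass.

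**Figure D4:**
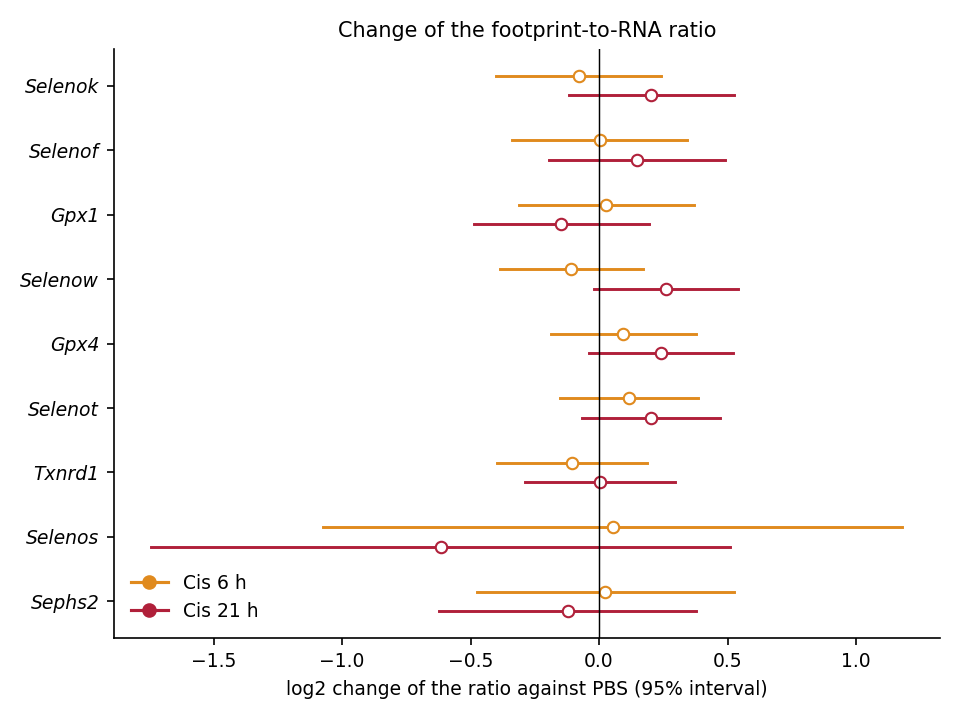
Log2 change of the footprint-to-RNA ratio against PBS (x axis) for 9 selenoprotein genes at 6 h (orange) and 21 h (red), with 95% intervals from limma over the 12 libraries. Open points did not pass. Every interval includes 0, and that of Selenos is the widest.

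No change of the footprint-to-RNA ratio was found for any of the 9 members tested. Limma, with the interaction of assay and group over 12 libraries, called 0 of 9 at 6 h (0% of all 9312 transcripts, 712 of which had an unadjusted p under 0.05, and 5 higher and 9 lower by voom) and 0 of 9 at 21 h (0.408% of all, 1183 with an unadjusted p under 0.05). No member had an unadjusted p under 0.05 at either time against PBS. For the ratio at 21 h against 6 h, limma called 0 of 9, and 55 higher and 39 lower over all transcripts. There the interval of Selenow left out 0 (0.37, 95% interval 0.09 to 0.65), with unadjusted p = 0.014 and limma adjusted p = 0.23. The median change at 21 h against PBS was 0.15, against -0.04 over all. In that comparison Selenow had the highest value (0.26, 95% interval -0.02 to 0.54) and Selenos the lowest (-0.62, -1.74 to 0.51). For Selenok the value was 0.20 (-0.12 to 0.52), for Gpx4 0.24 (-0.04 to 0.52) and for Txnrd1 0.00 (-0.29 to 0.30). The intervals of these 3 genes still hold changes of 0.30 to 0.52, so it was not shown that footprints and RNA moved alike.

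Promoter sequence was looked at because Selenok and Txnrd1 had the firmest footprint calls. The RefSeq windows of GRCm38.p6, 250 bases before to 50 after each start, were found for all 10 genes (15 windows). Letters of the antioxidant response element, TGACNNNGC on either strand, to which Nfe2l2 (NRF2) binds, were in windows of 2 of the 10 genes, Selenok and Txnrd1, and in those of 14.0% of all 27025 genes (12.4% of 32851 windows). The 100 bases before the start are printed for these 2 genes, with the matching letters in capitals.
Selenok, chr14:29968280-29968379, plus strand: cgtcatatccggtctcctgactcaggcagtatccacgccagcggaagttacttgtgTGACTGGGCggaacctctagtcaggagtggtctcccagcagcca
Txnrd1, chr10:82859106-82859205, plus strand: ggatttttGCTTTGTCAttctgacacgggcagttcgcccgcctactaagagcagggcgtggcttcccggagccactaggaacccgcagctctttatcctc
In Selenok the match is on the gene's strand, 44 to 36 bases before the start, and shares 4 bases with a GGGCGG box. In Txnrd1 it is on the other strand, 92 to 84 bases before the start of 1 of 3 listed windows. GGGCGG, on either strand, was found for 7 of the 10 genes and 38.2% of all genes (35.7% of windows). CCAAT was found for 6 and 41.1% (37.4% of windows), and TATAAA for Selenot and Sephs2 and 15.7% (13.6% of windows). A match of letters is a description of these windows and says nothing about binding in these cells. The search was made after the calls of Selenok and Txnrd1 were seen, and whether a match has a part in them was not tested.

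Of the 14 other selenoproteins listed, 13 were in the files and 8 passed the footprint filter. At 21 h, 1 was higher and 1 lower (18.9% and 20.2% of all transcripts were), and the median log2 fold change was 0.21. Selenom, an ER thiol-disulfide protein, rose from 87.3 and 100.3 RPKM in PBS to 144 and 173 at 21 h (0.72 ± 0.11, limma adjusted p = 0.0014), a size like that of Selenok, and held under all 16 alternatives. Its RNA overlapped (14.4 to 19.5 RPKM in PBS, 15.2 to 19.6 at 21 h), with a ratio change of 0.76 that did not pass (adjusted p = 0.33). Selenoi, a phospholipid-synthesis enzyme, fell from 64.3 to 70.2 RPKM in PBS to 52.9 to 53.7 at 21 h (-0.37 ± 0.10, limma adjusted p = 0.019). The Selenoi call was lost without PBS replicate 1 (-0.33, adjusted p = 0.087) or either 21 h library (-0.35 with 0.062 and -0.37 with 0.053). Selenop, the secreted selenium carrier, was abundant (186 to 277 RPKM) and did not pass (0.24 ± 0.13), nor did Selenoh, Msrb1, Selenon, Selenoo or Txnrd3. Gpx2 and Gpx3 were at or near 0.

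Among the 11 genes for selenocysteine insertion and supply, the outstanding value was Eefsec, the elongation factor for the selenocysteine tRNA. Its footprints went from 12.1 and 14.9 RPKM in PBS to 8.64 and 10.8 at 6 h and to 0.982 and 1.86 at 21 h (99 and 136 reads against 6 and 12). No 21 h library came near any other library. The log2 fold change was -2.93 ± 0.27 (limma adjusted p = 0.00012), and Eefsec was lower under every alternative. RNA fell from 32 and 37 reads in PBS to 1 and 4 at 21 h (-2.63 ± 0.34, limma adjusted p = 0.00092), and the ratio change of -0.31 did not pass. The gene spans 189 kb in RefSeq, longer than 96.3% of the genes tested, while the members run from 1.26 kb for Gpx1 to 63.8 kb for Txnrd1, which rose. Whether the span has a part in the fall was not tested.

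Sars, the seryl-tRNA synthetase that charges the tRNA with serine, rose by 0.35 ± 0.08 (limma adjusted p = 0.010), and Eif4a3, which can bind SECIS elements, by 0.33 ± 0.08 (adjusted p = 0.013, or 0.060 without PBS replicate 2, where it was 0.30). The SECIS-binding protein Secisbp2 was at -0.48 ± 0.22, Pstk, the kinase that acts on the seryl-tRNA, at -0.36 ± 0.17 and Sepsecs, which completes the selenocysteine, at -0.60 ± 0.46, and none of these passed at 21 h. Scly, Secisbp2l, Trnau1ap, Ncl and Rpl30 did not pass in footprints. In RNA, Rpl30 was lower by limma (-0.22, adjusted p = 0.034) but at 0.01 after quantile normalization, so it has no settled direction. The median of the list was -0.23 in footprints.

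**Figure D5:**
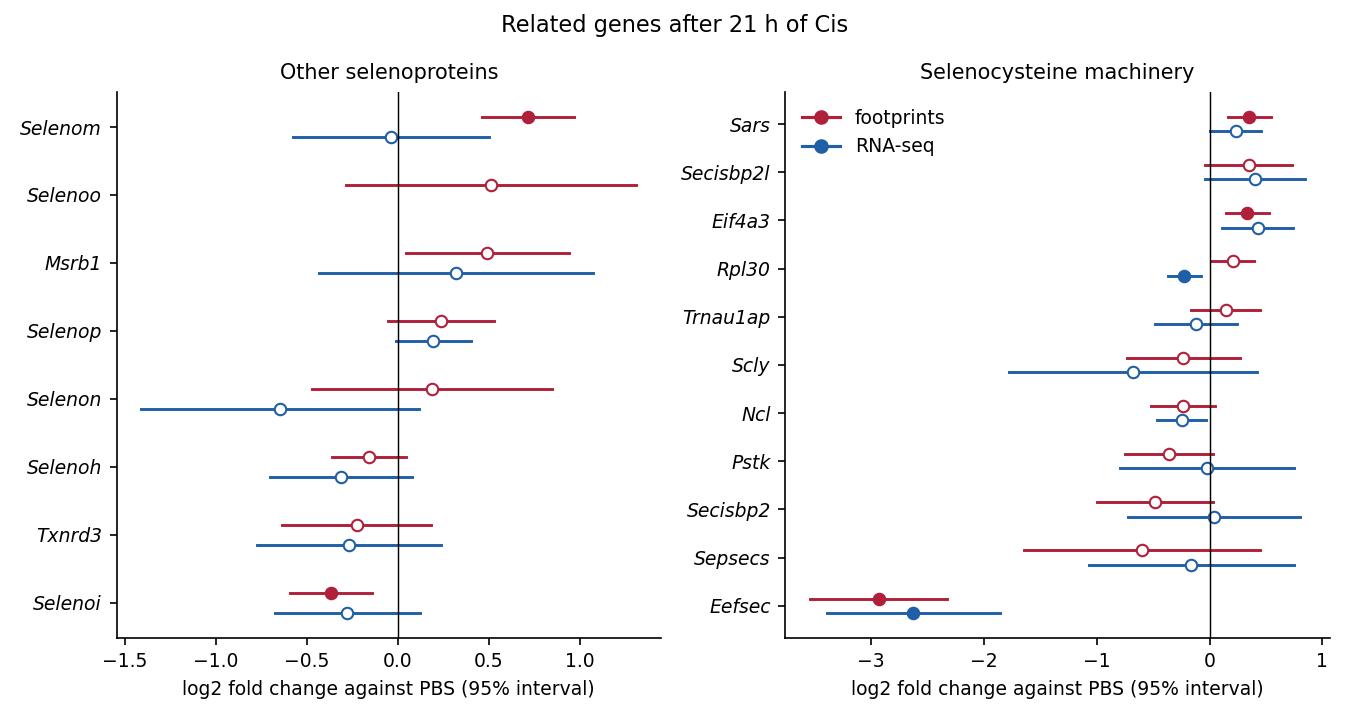
Log2 fold change at 21 h against PBS (x axis) for other selenoproteins (left) and genes of selenocysteine insertion and supply (right), in footprints (red) and RNA-seq (blue), with 95% intervals from limma, 2 libraries against 2. Filled points have an adjusted p under 0.05. Selenom and Eefsec stand apart in opposite directions.

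Partner genes of the members moved in both directions at 21 h, when footprints of 18.9% of all transcripts were higher and 20.2% lower. Of 15 thioredoxin and peroxiredoxin partners, 5 had higher and 1 lower footprints (median 0.15). Txnip, the inhibitor of thioredoxin, rose by 1.93 ± 0.08 and Srxn1, which repairs overoxidized peroxiredoxins, by 1.50 ± 0.18. Glrx (0.46 ± 0.11) and Prdx1 (0.44 ± 0.08) rose by amounts like that of Txnrd1. Of 12 genes of glutathione synthesis and ferroptosis control, 7 were higher and 3 lower (median 0.45). Aifm2, which guards against lipid peroxidation without Gpx4, rose by 1.23 ± 0.22, and Gch1, which starts tetrahydrobiopterin synthesis, by 1.03 ± 0.19. Gclm (0.62 ± 0.10) and Slc3a2 (0.55 ± 0.09), which serve glutathione synthesis and cystine import, also rose. The 3 lower genes were Lpcat3 (-0.49), Slc7a11, the cystine transporter that pairs with Slc3a2 (-0.43), and Acsl4 (-0.33), named after their values were seen. The Lpcat3 call was lost without PBS replicate 2 (-0.44, adjusted p = 0.080) or 21 h replicate 1 (-0.35, 0.074), and that of Acsl4 without PBS replicate 1 (-0.30, 0.066) or 21 h replicate 2 (-0.30, 0.064). Glrx was at 0.45 with adjusted p = 0.052 without PBS replicate 2.

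For the lists that follow, the shares over all transcripts in footprints at 21 h were again 18.9% higher and 20.2% lower. The homologues were 6 genes that use cysteine in place of selenocysteine or do a like job without it. Of these, 4 were measured, and 0 were higher and 2 lower. These were Gsr, glutathione reductase (-0.60 ± 0.08), and Sephs1, the homologue of Sephs2 that lacks selenocysteine (-0.49 ± 0.11). Of 9 measured ER partners, 1 was higher and 4 lower. Syvn1, the ubiquitin ligase of the complex with Selenos, rose by 1.01 ± 0.20, whereas Zdhhc6, the partner of Selenok, fell by 0.77 and Uggt1, the partner of Selenof, fell by 0.73. Stt3a, a subunit of the oligosaccharyltransferase, fell by 0.50. Zdhhc6 was at -0.66 with adjusted p = 0.067 without PBS replicate 1, and Uggt1 at -0.61 with adjusted p = 0.054 without PBS replicate 2. Of 3 measured genes for uptake of selenium or cystine, Lrp1 (-1.41 ± 0.25) and Slc7a11 (-0.43 ± 0.12), which is counted in the glutathione list too, were lower. The Slc7a11 call was lost without PBS replicate 1 (-0.31, adjusted p = 0.13) or 21 h replicate 1 (-0.32, adjusted p = 0.12).

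The median profile of the 9 members measured in both assays, with each gene centred within an assay, was compared with 9303 other transcripts over the 12 libraries. Gpx1, Selenok and Txnrd1 followed it most closely (Pearson r = 0.91 each), while Selenof was at 0.15, Gpx4 at 0.32 and Selenow at 0.36. The 3 most alike transcripts outside the list were Tor1b (r = 0.97), Slbp (0.96) and Psmd5 (0.96). Their footprints were higher at 21 h by 0.73, 1.18 and 0.61 and their RNA by 0.75, 1.15 and 0.66. Since they were picked for likeness to a profile that is highest at 21 h, these rises follow from the choice. All of these r are descriptions over libraries that share depth and treatment, and the members' own r include themselves.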

How the data were processed

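Ribosome profiling and RNA-seq of KPC cells gave 12 libraries, 2 per assay and group. The authors deposited RPKM values for a representative transcript of each gene, per coding length for footprints and per transcript length for RNA-seq. The submitters' processing notes name cutadapt, STAR and GRCm39, without versions. How reads shared with pseudogenes or near-identical copies were treated is not given in the sources used here. Multiplied by length, 100% of values were whole multiples of a single read (relative tolerance 1e-06), which gave the reads and the depth. Read numbers cover counting error only. Unlisted transcripts were set to 0.

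RPKM values were scaled within an assay by median-of-ratios factors (0.948 to 1.08), kept at a mean of at least 1, and put on the log2(RPKM + 0.5) scale. The model had all 3 groups of an assay (R 4.3.3 and limma 3.58.1, lmFit and eBayes with a trend), and tests were two-sided, Benjamini-Hochberg over all transcripts, threshold 0.05. The log2(RPKM + 0.5) scale understates changes of low genes. TE was the interaction of assay and group. An exact permutation test of 2 against 2 cannot go below p = 0.333. The named genes were the 10 members, any other selenoprotein or selenocysteine insertion gene past the filter, and up to 4 called genes of each other list with the largest footprint change at 21 h. The members, gene lists and tests were chosen with earlier results of these data known. The alternatives tried were a pseudocount of 0.1 or 1, a minimum mean of 5 or none, no scaling, quantile normalization, no trend, only the groups compared, a replicate block, voom on the recovered reads, and each library left out. Methods were tested on simulated data in which 200 transcripts changed by a log2 of 1 in footprints at 21 h. Of these, 72% were recovered, and 4 unchanged transcripts were called. Smaller changes, like those of the members, were not simulated. Genomic span came from RefSeq genes of GRCm38.p6 by symbol for 99.2% of the tested transcripts, as a length only. Python 3.11.15, numpy 2.4.6, pandas 2.3.3 and matplotlib 3.10.9 were used.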

Additional observations from a re-analysis of the deposited data

Results flagged for a closer look

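The values here are log2 differences in which the effect of Cis at 21 h differed from that at 6 h by the test of the difference itself (limma, adjusted p under 0.05), among the 10 members, the other selenoproteins and the genes of selenocysteine insertion and supply. In footprints, Selenok (0.47), Txnrd1 (0.38) and Selenot (0.27) of the members were higher at 21 h than at 6 h. Selenom (0.69), Sars (0.48) and Eif4a3 (0.45) were also higher at the later time. Sars and Eif4a3 were below their PBS values at 6 h and above them at 21 h.

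Eefsec had the largest difference in size of these genes, -2.46 in footprints and -2.17 in RNA. Pstk (-0.84), Secisbp2 (-0.79) and Txnrd3 (-0.64) were lower at 21 h than at 6 h in footprints, although each of these 3 was not called against PBS at either time, with values above 0 at 6 h and below 0 at 21 h. Of these, Secisbp2 lost its call in 8 alternatives and Txnrd3 in 4. In RNA, Selenow was lower at 21 h than at 6 h (-0.33). No sample was flagged as far from its group, since groups of 2 cannot be tested for that.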

How the results depend on the processing

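Without the eBayes trend, the number of members called was 2 in footprints at 21 h, 1 in footprints at 21 h against 6 h, 0 in RNA at 21 h and 0 in RNA at 21 h against 6 h, compared with 5, 3, 3 and 1. Counts over all transcripts are given below only for quantile normalization, no scaling and voom. For the other settings, fewer calls among the members cannot be told apart here from fewer calls over all transcripts. For RNA at 21 h, quantile normalization called 1. It called 916 higher and 1110 lower over all transcripts, compared with 1094 and 1154 in the main fit. For RNA at 21 h against 6 h, no filter called 0 and only the groups compared called 0. No scaling called 3, all higher, and voom called 2 (1 higher and 1 lower). Over all transcripts, no scaling called 1234 higher and 514 lower there, and voom 931 and 1126. Voom called 1 in footprints at 6 h, where it called 533 transcripts higher and 722 lower over all. With each library left out in turn, members called ranged from 2 to 5 in footprints at 21 h, 1 to 2 in footprints at 21 h against 6 h and 0 to 3 in RNA at 21 h, and were 0 in RNA at 21 h against 6 h. Direction changed without scaling for RNA at 21 h of Gpx4 (0.073) and Selenof (0.054) and for the ratio of Txnrd1 (-0.044), and with quantile normalization for RNA at 21 h of Selenow (-0.020) and Rpl30 (0.0076). Leaving out libraries turned values near 0: footprints at 6 h of Selenos (-0.014 to 0.18), Selenof (-0.15 to 0.18), Txnrd1 (-0.0059 to 0.086) and Txnrd2 (-0.69 to 0.30), and footprints at 21 h of Selenof (-0.049 to 0.28). It did so for RNA at 21 h of Gpx4 (-0.091 to 0.073), Selenow (-0.040 to 0.072), Selenos (-0.038 to 1.51) and Selenof (-0.11 to 0.046). It also did for the ratio at 21 h of Selenos (-1.38 to 0.16), Selenof (-0.019 to 0.31), Txnrd1 (-0.075 to 0.091) and Sephs2 (-0.28 to 0.041). The cause was not tested. Unscaled RPKM called 6 members in footprints at 21 h. Calls over all transcripts moved too, to 2183 higher and 1971 lower, from 1959 and 2100 in the main fit. Single values were followed for members at 21 h, in footprints at 6 h and, where RNA had a call in another comparison, in RNA at 6 h. For other comparisons and lists, only calls of the main fit were followed. Over these values and the alternatives, 1785 kept direction and side of the threshold, 264 lost a call, 4 gained one and 24 changed sign. Gains elsewhere, as for members in RNA at 21 h against 6 h, are not in this count. With the replicate block, 5 members were called in footprints at 21 h. Same-numbered libraries did not deviate together (r -0.0406 to 0.0347 over 15 pairs of groups). A lone library left in a group was assumed to vary like the others.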
